A study of Mus musculus with 4 samples.

Results

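The genes described here are 38 that encode antioxidant enzymes, the enzymes of glutathione and the thioredoxin system, the NRF2 regulator with its partners and textbook targets, haem and iron handling proteins, metallothioneins and 2 NADPH oxidase subunits. They were taken by symbol, as named members of these pathways, from the 22322 genes listed for every library, and 37 of them had enough counts to be tested among 12499 genes. The samples were cardiomyocytes released by Langendorff perfusion from hearts of male mice that had undergone transverse aortic constriction (TAC), a band on the aortic arch that loads the left ventricle with pressure, or a sham operation, with 2 RNA-seq libraries in each group. The methods give surgery at 2 months of age and examination 14 weeks later, and also call the animals 14 weeks old at cell isolation. Each library came from part of the myocytes of 1 heart, no genetic change was named, and the strain was not given in the sources used here.

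NRF2 (gene Nfe2l2) is a transcription factor that the adaptor KEAP1 holds in the cytoplasm and delivers for degradation. When oxidants or electrophiles modify KEAP1, NRF2 persists, pairs with a small MAF protein on antioxidant response elements and switches on genes such as Nqo1, Srxn1, Gclc, Gclm, Txnrd1 and Hmox1. Superoxide dismutases turn superoxide into hydrogen peroxide, which catalase, glutathione peroxidases and peroxiredoxins remove with electrons that come, for most of them, from glutathione or thioredoxin and ultimately from NADPH. Heart muscle, dense in mitochondria, relies on these enzymes throughout life.

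The libraries held 24237777 to 32118323 expected counts each. Protein-coding genes of the mitochondrial genome took 39.8% to 40.8% of the counts in 3 libraries and 47.4% in TAC replicate 1, and the 38 genes together took 0.398% and 0.391% in sham replicates 1 and 2 and 0.344% and 0.388% in TAC replicates 1 and 2. Levels are given as CPM, the counts of a gene scaled to a common library size after TMM (trimmed mean of M values), a method that centres the bulk of genes. Myh6, the adult cardiac myosin heavy chain, stood at 23196 to 29438 CPM in every library, and 15 cardiomyocyte genes together took 89698 to 100063 CPM. Gene by gene, 11 of these 15 had estimates above 0, against 49.1% of all tested genes. Both TAC libraries lay above both sham libraries for 8 of them, against 29.8% of all genes. The 1 called higher was Tnnc1 (0.52, edgeR adjusted p = 0.0278), against 2.58% of all genes. The part of these genes in the higher members was not tested. Lists of 15 genes each marking macrophages, endothelial cells and fibroblasts were lower in TAC on the estimate for 15 of 15 genes in each list. Of these, 0, 3 and 4 genes were called lower, against 2.43% of all genes. A mural cell list had 11 of 12 estimates below 0 and 2 genes called lower, against the same 2.43%. Summed levels were 151.98 and 77.5 CPM in sham against 40.7 and 77.8 CPM in TAC for macrophages, 791 and 631 against 381 and 531 CPM for endothelial cells, and 672 and 484 against 310 and 404 CPM for fibroblasts. No gene of the macrophage, endothelial and fibroblast lists was at 0, and in such bulk samples fewer cells of a type and less RNA per cell cannot be told apart.

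The members spanned a wide range of abundance. Levels of different genes were compared only in the deposited FPKM, which divide by transcript length. Fth1, the ferritin heavy chain that oxidises and stores iron, was the most abundant at 658 and 599 FPKM in sham and 497 and 470 FPKM in TAC. Gpx4, the peroxidase that clears lipid hydroperoxides from membranes, came next with 244 and 263 FPKM in sham and 256 and 302 FPKM in TAC. Averaged over the 4 libraries, 10 members exceeded 100 FPKM. They included the cytosolic dismutase Sod1 at 138 FPKM, the metallothionein Mt1 at 128 FPKM and 5 of the 6 peroxiredoxins, Prdx5, Prdx3, Prdx1, Prdx2 and Prdx6, whose means from 144 to 103 FPKM lay close enough that the ranges over libraries of neighbours in this order overlapped.

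**Figure D1:**
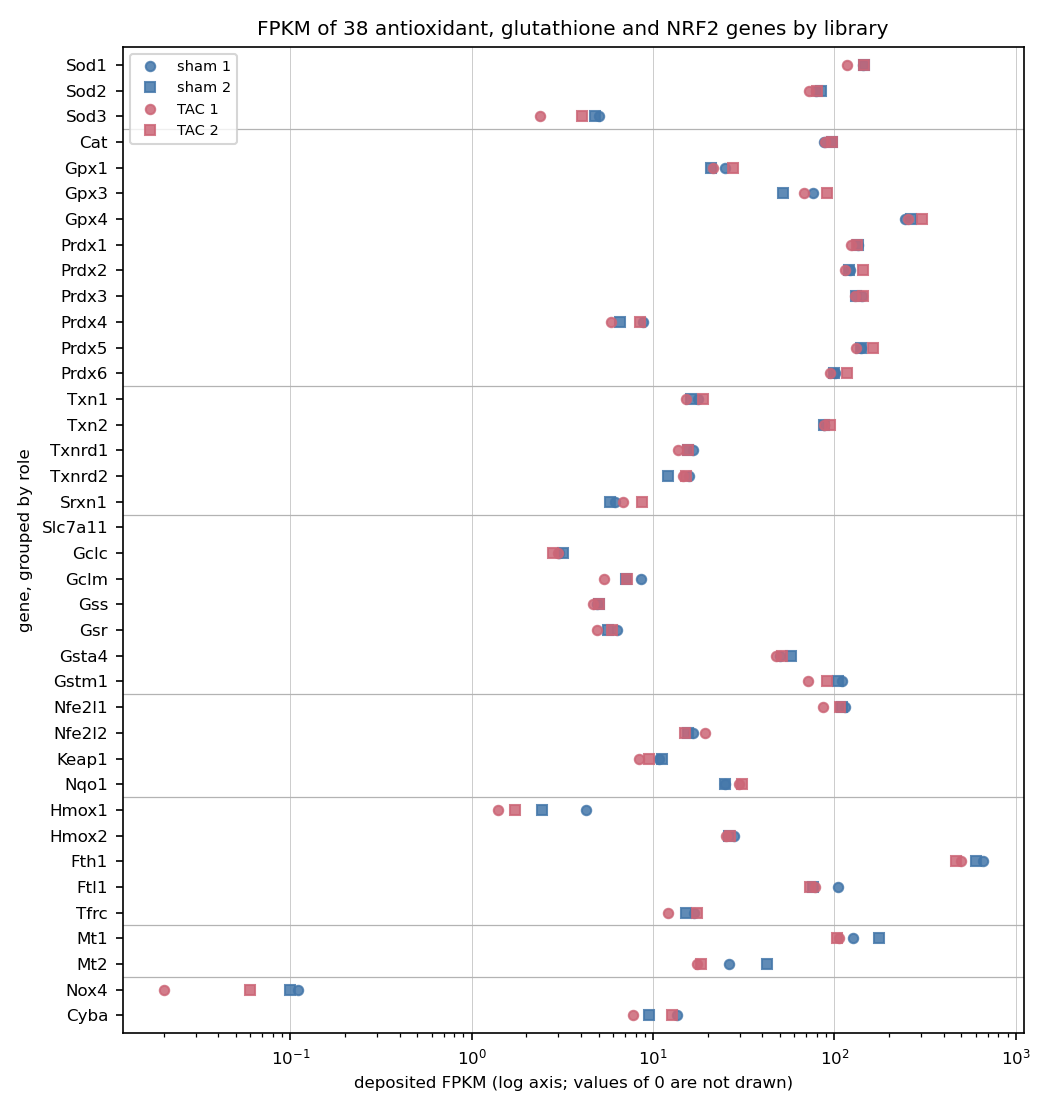
Deposited FPKM of the 38 genes in each of the 4 libraries on a log axis, grouped by role, with circles for replicate 1 and squares for replicate 2 of sham (blue) and TAC (red). Fth1 and Gpx4 lie highest, and the NADPH oxidase subunit Nox4 lies below 1 FPKM in every library.

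Glutathione synthesis sat at the other end of the scale. Gclc and Gclm, the catalytic and modifier subunits of glutamate-cysteine ligase, which makes the first and rate-limiting bond of glutathione, averaged 3.01 and 7.05 FPKM. Gss, the second enzyme of the route, averaged 4.90 FPKM, and Gsr, which regenerates reduced glutathione, averaged 5.70 FPKM. Slc7a11, the cystine importer that feeds glutathione synthesis in many cell types, had 1 and 0 counts in sham and 0 and 1 in TAC and was not tested. A count of 0 allows up to 3 counts, which is 0.123 CPM in the shallowest library, TAC replicate 2. The inducible haem oxygenase Hmox1 averaged 2.47 FPKM, against 26.4 FPKM for its constitutive relative Hmox2.

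The question put to the data was whether these genes differed between TAC and sham cardiomyocytes. Of the 37 tested members, 2 were higher in TAC and 0 were lower at an adjusted p under 0.05 in edgeR's quasi-likelihood test with Benjamini-Hochberg adjustment over all tested genes. These 2 were Srxn1 and Nqo1. The share called higher was 5.41% of members against 2.58% of all tested genes, and the share called lower was 0% against 2.43%, with 5.01% of all genes called in either direction. With 2 members called, the first share rests on those genes alone. Before adjustment, edgeR gave p under 0.05 for 10 members with higher and 4 with lower estimates, which is 27% and 10.8% of members against 13.5% and 14% of all genes. DESeq2 called 4 members higher, adding Gpx3 and Gpx4, and 1 lower, Mt2, which is 11.1% and 2.78% of the 36 members to which it gave an adjusted p, against 4.02% and 4.32% of all genes to which it gave one.

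Both TAC libraries lay above both sham libraries in CPM for 15 members, or 40.5%, against 29.8% of all genes. Both lay below for 8 members, or 21.6%, against 30.3% of all genes, and the groups overlapped for the other 14. The group difference was larger than both gaps between replicates of a group for 17 members and smaller than the wider of these gaps for 20. The median log2 fold change, TAC against sham, was 0.09 over the members and −0.01 over all tested genes. With library totals in place of TMM, the scaling that the study states for its mRNA data, the median of all genes moved to −0.20 and that of the members to −0.10. Under it 0 members were called higher and Mt2 was called lower, with 528 of 12499 genes called in either direction. With totals from which mitochondrial genes were removed these medians were −0.11 and −0.01. The sign of a small difference therefore depended on the scaling, and 26 of the 37 members lay above the median of all genes under each of these 3 scalings.

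**Figure D2:**
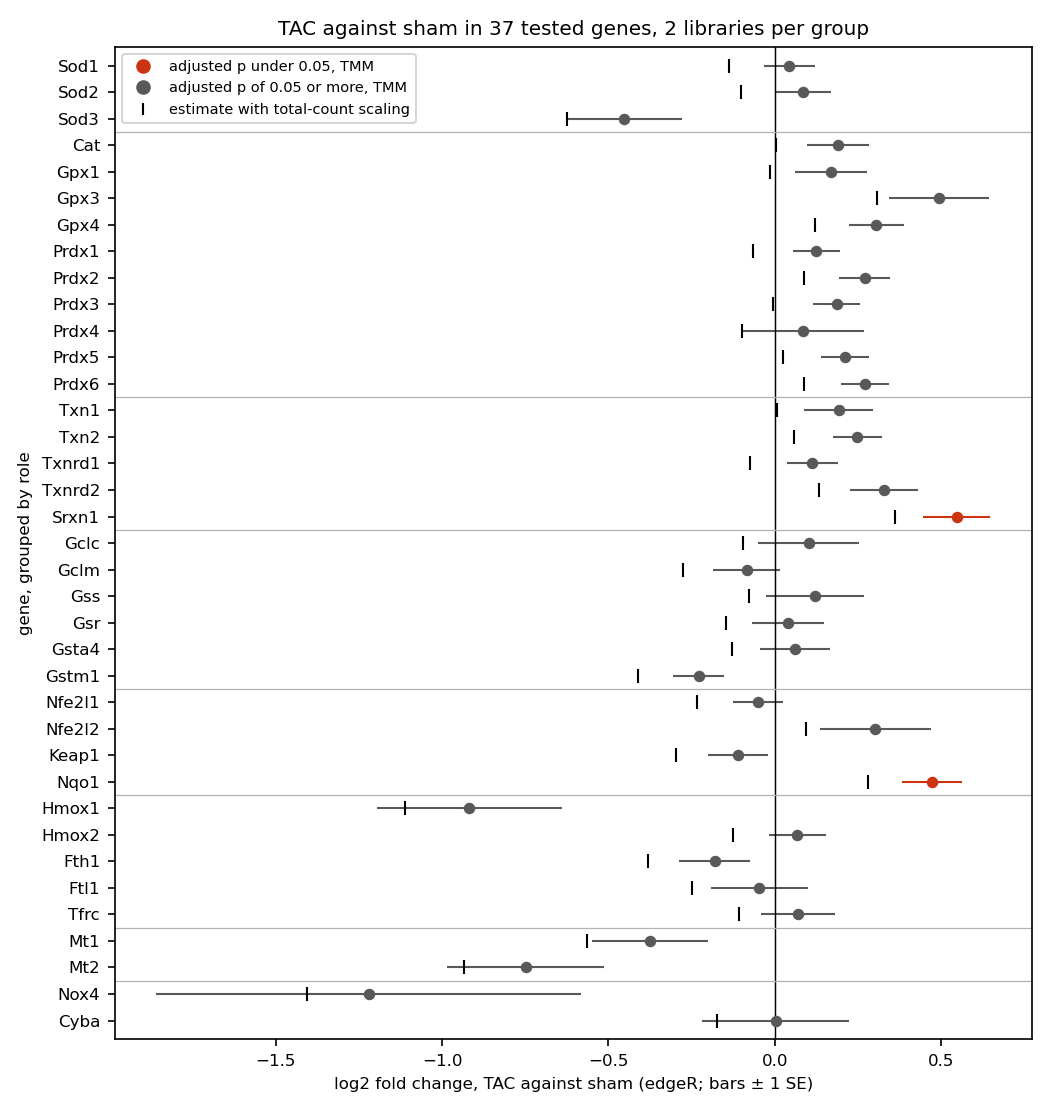
Log2 fold changes of the 37 tested genes, TAC against sham, from edgeR with TMM scaling (points, bars ± 1 SE, 2 libraries per group) and with total-count scaling (vertical ticks), grouped by role. Srxn1 at 0.55 and Nqo1 at 0.47 are the members called, and total-count scaling places every tick to the left of its point.

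Srxn1 encodes sulfiredoxin, the enzyme that repairs peroxiredoxins whose active-site cysteine has been over-oxidised, and it is a textbook NRF2 and AP-1 target. The gene (ENSMUSG00000032802, protein coding) lies on the plus strand at chr2:152105516-152111376 in the GENCODE M21 annotation of GRCm38. Its level was 15.9 and 15.7 CPM in sham and 22.1 and 24.1 CPM in TAC, from 502, 452, 615 and 589 counts. The sham libraries were nearly equal and both TAC libraries were higher. The mean was 15.8 ± 0.11 CPM in sham and 23.1 ± 1.44 CPM in TAC (SD, n = 2), a rise of 46.1% (log2 fold change 0.55 ± 0.10 SE, edgeR adjusted p = 0.0310). The call was lost with total counts (0.36, edgeR adjusted p = 0.201), with totals without mitochondrial genes (0.45, edgeR adjusted p = 0.0566) and without sham replicate 2 (0.54, edgeR adjusted p = 0.0535). On the deposited FPKM the values were 6.19 and 5.81 in sham and 6.81 and 8.64 in TAC, again without overlap, and limma on log2(FPKM + 0.1) gave 0.35 with an adjusted p of 0.243.

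Nqo1 encodes NAD(P)H quinone dehydrogenase, which reduces quinones without a radical intermediate and is widely used as a readout of NRF2 activity. It lies on the minus strand at chr8:107388225-107403206 (ENSMUSG00000003849, protein coding). The libraries held 35.3 and 37.3 CPM in sham and 53.3 and 47.4 CPM in TAC, from 1116, 1072, 1485 and 1159 counts. Both TAC libraries exceeded both sham libraries. The means were 36.3 ± 1.40 CPM and 50.3 ± 4.15 CPM (SD, n = 2), a rise of 38.9% (log2 fold change 0.47 ± 0.09 SE, edgeR adjusted p = 0.0335). Total counts gave 0.28 (edgeR adjusted p = 0.193), leaving out sham replicate 1 gave 0.44 (edgeR adjusted p = 0.0712) and leaving out TAC replicate 1 gave 0.39 (edgeR adjusted p = 0.0994), so that the call was lost in each case, while totals without mitochondrial genes gave 0.37 (edgeR adjusted p = 0.0492). In FPKM, Nqo1 stood at 24.9 in both sham libraries and at 29.8 and 30.8 in TAC, and limma on log2(FPKM + 0.1) gave 0.28 with an adjusted p of 0.200.

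The promoters of the called members were read to show what sequence stands at their start sites. RefSeq windows of 250 bases upstream (GRCm38.p6) were matched for 32 of the 38 members and searched on both strands for 3 motifs. These were TGACNNNGC (the core of the antioxidant response element), TGANTCA (the AP-1 element) and TGANTCAGC (the longer site that NRF2 and small MAF proteins share, which contains the AP-1 element). The windows of Srxn1, Nqo1, Prdx1 and Mt2 are given 5′ to 3′ on the strand of the gene, at chr2:152105274-152105523 (plus strand), chr8:107403206-107403455 (minus strand), chr4:116685349-116685598 (plus strand) and chr8:94172368-94172617 (plus strand), with every match in capitals. Prdx1 and Mt2 are shown because they hold TGANTCAGC as Srxn1 does, and Nqo1 for comparison.
Srxn1: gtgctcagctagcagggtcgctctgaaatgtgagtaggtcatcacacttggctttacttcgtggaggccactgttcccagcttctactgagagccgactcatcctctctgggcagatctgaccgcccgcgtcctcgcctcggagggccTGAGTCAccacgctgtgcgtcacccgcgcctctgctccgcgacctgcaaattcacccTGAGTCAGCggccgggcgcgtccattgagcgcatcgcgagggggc
Nqo1: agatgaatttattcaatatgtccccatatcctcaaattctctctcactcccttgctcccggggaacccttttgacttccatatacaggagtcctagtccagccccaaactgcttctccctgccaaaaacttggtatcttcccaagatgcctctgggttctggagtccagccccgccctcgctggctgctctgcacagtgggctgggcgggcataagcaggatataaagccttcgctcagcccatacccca
Prdx1: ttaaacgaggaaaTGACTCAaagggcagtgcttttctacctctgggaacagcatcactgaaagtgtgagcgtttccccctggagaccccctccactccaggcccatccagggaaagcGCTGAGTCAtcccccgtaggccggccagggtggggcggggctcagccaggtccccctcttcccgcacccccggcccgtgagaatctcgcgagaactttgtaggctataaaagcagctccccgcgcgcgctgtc
Mt2: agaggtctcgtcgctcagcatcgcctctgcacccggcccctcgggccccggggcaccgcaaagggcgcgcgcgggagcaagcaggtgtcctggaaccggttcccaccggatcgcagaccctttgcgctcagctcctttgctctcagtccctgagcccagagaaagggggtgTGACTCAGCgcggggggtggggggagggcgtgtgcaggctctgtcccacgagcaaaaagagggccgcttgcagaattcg

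TGANTCAGC was present in the Srxn1 window, where it begins 45 bases before the start site, and in those of Mt2, 79 bases before it, and Prdx1, where it spans −133 to −125 on the opposite strand. These 3 of 32 matched members compare with 1.17% of all 27025 genes with a window. TGANTCA occurred in the same 3 members, at 2 places each for Srxn1 and Prdx1, and in 7.82% of all genes. TGACNNNGC occurred in 6 members, Gclm, Mt2, Nfe2l2, Prdx1, Sod1 and Txnrd1, and in 11.5% of all genes. No motif matched in the Nqo1 window, which says only that these letters are not in those 250 bases. The 3 genes with TGANTCAGC did not share a direction: Srxn1 was called higher, Prdx1 had an estimate of 0.12 and Mt2 an estimate of −0.75, neither called. A match describes the sequence and does not show that a factor bound there. Among the genes for AP-1 subunits on the immediate early list, Fos (127 and 64.3 CPM in sham, 14.1 and 16.2 CPM in TAC, −2.66 ± 0.30, edgeR adjusted p = 0.00641), Jun (−1.79), Junb (−1.99) and Fosb (−2.51) were called lower in TAC, and Fosl2 (−0.12) and Jund (−0.28) were not called. Their part in the Srxn1 and Mt2 values was not tested.

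The regulator and its inhibitor themselves were not called. Nfe2l2 (chr2:75675513-75704641, minus strand), which encodes NRF2, was at 37.4 and 37.04 CPM in sham and 54.8 and 36.8 CPM in TAC. One TAC library was higher than the other 3, which were nearly equal. The log2 fold change was 0.30 ± 0.17 SE (edgeR adjusted p = 0.280, range over the alternatives 0.00932 to 0.959). It was 0.56 and called without TAC replicate 2 (edgeR adjusted p = 0.00932) and −0.02 without TAC replicate 1 (edgeR adjusted p = 0.959), so that 1 library set its direction. Keap1 (chr9:21229730-21239361, minus strand) was at 31.5 and 34.9 CPM in sham and 30.8 and 30.7 CPM in TAC. Its groups did not overlap, but the gap between the sham libraries was wider than the difference between groups. The log2 fold change was −0.11 ± 0.09 SE (edgeR adjusted p = 0.456, range 0.161 to 0.926), and an antisense gene shares 510 of its exonic bases. Nfe2l1, the NRF1 factor that governs proteasome genes, was far more abundant than Nfe2l2 in FPKM (104 against 16.6 on average) and ran from 415 to 451 CPM with overlapping groups.

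**Figure D3:**
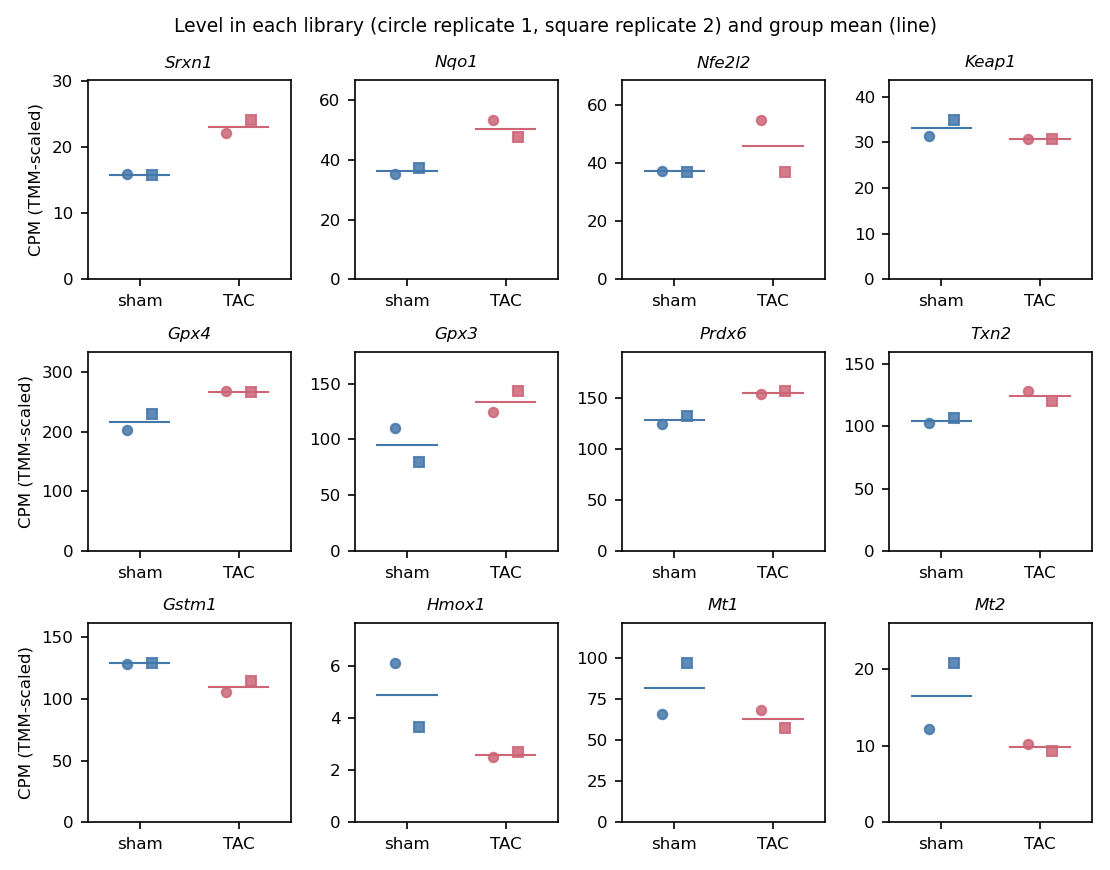
CPM of 12 members in each library, with circles for replicate 1 and squares for replicate 2, and lines at the group means, each axis starting at 0. Srxn1 and Nqo1 separate the groups, Nfe2l2 is higher in TAC replicate 1 than in the other 3 libraries, and Hmox1 and Mt2 spread more between the sham libraries than between the TAC libraries.

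The thioredoxin system supplies electrons to peroxiredoxins. All 5 tested members had higher estimates in TAC, each with both TAC libraries above both sham libraries, and Srxn1 was the 1 called, where 29.8% of all genes had their libraries so placed and 2.58% were called higher. Txnrd2, the mitochondrial thioredoxin reductase, was at 21.3 and 19.8 CPM in sham and 27.2 and 24.5 CPM in TAC (0.33 ± 0.10, edgeR adjusted p = 0.0970). Txn2, the mitochondrial thioredoxin, was at 103 and 107 CPM in sham and 128 and 120 CPM in TAC (0.25 ± 0.07, edgeR adjusted p = 0.0897). The cytosolic pair had 0.19 ± 0.10 for Txn1 and 0.11 ± 0.08 for Txnrd1 on the log2 scale, and the difference between the pairs was not tested. The median of the 5 was 0.25 with TMM and 0.06 with total counts, where 1 of them, Txnrd1, fell on the negative side. All 5 lay above the median of all genes under both, a placing that a change between these scalings hardly moves.

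Of the enzymes that remove peroxide, edgeR called 0 of 10, against 2.58% of all genes called higher, and gave an unadjusted p under 0.05 for 6, against 13.5% with higher estimates. All 10 estimates were above 0 with TMM, and 9 members, all but Prdx4, had both TAC libraries above both sham libraries, an arrangement found for 29.8% of all genes. Gpx4 was at 202 and 229 CPM in sham and 267 and 266 CPM in TAC (0.31 ± 0.08, edgeR adjusted p = 0.0755, range 0.0298 to 0.598), and it was 0.40 and called without sham replicate 2 (edgeR adjusted p = 0.0471) and 0.22 without sham replicate 1 (edgeR adjusted p = 0.330). Prdx6, a peroxiredoxin that also acts on phospholipids, was at 124 and 132 CPM in sham and 153 and 156 CPM in TAC (0.27 ± 0.07, edgeR adjusted p = 0.0714, range 0.0469 to 0.773). The TAC libraries agreed closely for both genes.

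Gpx3, the secreted plasma glutathione peroxidase, had the largest estimate of the group, with 110 and 79.6 CPM in sham and 125 and 143 CPM in TAC. Its sham libraries differed by 0.47 on the log2 scale, about as much as the groups did (0.49 ± 0.15, edgeR adjusted p = 0.0924, range 0.0007 to 0.351). Leaving out sham replicate 1 gave 0.75 (edgeR adjusted p = 0.0007), whereas leaving out sham replicate 2 gave 0.28 (edgeR adjusted p = 0.181). Catalase (Cat) was at 208 and 244 CPM in sham and 266 and 250 CPM in TAC, and the mitochondrial peroxiredoxins Prdx3 and Prdx5 had estimates of 0.19 and 0.21. With total counts the median of the 10 was 0.01 and 4 estimates were below 0. With mitochondrial genes left out of the totals it was 0.10 and 1 was below 0, and on FPKM 3 were below 0. Under each of these all 10 lay above the median of all genes, a placing that a change of library factor alone hardly moves. Prdx2 shares exonic bases with Junb and Rnaseh2a, and Prdx5 with Trmt112, on the opposite strand, and pseudogenes of Gpx4 and Prdx6 are annotated, so reads of these genes may be shared.

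Among superoxide dismutases, the cytosolic Sod1 and the mitochondrial Sod2 differed by 0.04 ± 0.08 and 0.09 ± 0.08 on the log2 scale with overlapping groups, and with total counts both estimates were below 0. Extracellular Sod3, which binds to the matrix, was at 17.1 and 17.2 CPM in sham and 10.2 and 15.0 CPM in TAC. Both TAC libraries were lower, TAC replicate 1 the more so. The log2 fold change was −0.45 ± 0.18 SE (edgeR adjusted p = 0.150, range 0.0161 to 0.505). It was −0.75 and called without TAC replicate 2 (edgeR adjusted p = 0.0161) and −0.20 without TAC replicate 1 (edgeR adjusted p = 0.505). The summed fibroblast and endothelial marker levels were likewise lowest in TAC replicate 1, and their part in the Sod3 values was not tested.

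For glutathione synthesis, recycling and conjugation, estimates ran from −0.23 to 0.12 over 6 tested members. Of these edgeR called 0, against 2.58% of all genes called higher and 2.43% lower, and gave an unadjusted p under 0.05 for 1, Gstm1, against 14% of all genes with lower estimates. Gstm1 and Gclm had both TAC libraries below both sham libraries, as 30.3% of all genes did. Gclc was at 9.42 and 10.5 CPM in sham and 11.8 and 9.53 CPM in TAC, with overlapping groups. Gclm was at 17.5 and 17.2 CPM in sham and 16.5 and 16.2 CPM in TAC (−0.08 ± 0.10, edgeR adjusted p = 0.616). These textbook NRF2 targets did not separate in the direction seen for Nqo1 and Srxn1, and their difference from those genes was not tested. Gstm1, a mu-class glutathione transferase, was at 129 CPM in both sham libraries and at 105 and 115 CPM in TAC (−0.23 ± 0.08, edgeR adjusted p = 0.110, range 0.0573 to 0.402). Gss, Gsr and Gsta4, which conjugates lipid aldehydes such as hydroxynonenal, had estimates of 0.12, 0.04 and 0.06. With total counts all 6 estimates were below 0. Under either scaling 4 of the 6 lay above the median of all genes, a placing that the change between them hardly moves.

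Hmox1 (ENSMUSG00000005413, plus strand, chr8:75093621-75100589), which opens the haem ring and releases iron, carbon monoxide and biliverdin, had 194 and 106 counts in sham and 70 and 66 in TAC. These were 6.13 and 3.68 CPM against 2.51 and 2.70 CPM. Both TAC libraries were lower, and sham replicate 1 stood well above sham replicate 2. The log2 fold change was −0.92 ± 0.28 SE (edgeR adjusted p = 0.0928, range 0.0218 to 0.469), so Hmox1 was not called. It was −0.50 without sham replicate 1 (edgeR adjusted p = 0.469) and −1.23 and called without sham replicate 2 (edgeR adjusted p = 0.0218). Macrophages are known to express Hmox1 strongly, and the summed macrophage list was highest in the same library, sham replicate 1, at 1.75 times its mean over the 4 libraries against 1.63 times for Hmox1. The list had 15 of 15 estimates below 0 with 0 called by edgeR, against 2.43% of all genes called lower, and 7 had an unadjusted p under 0.05, against 14% of all genes with lower estimates. A list of 22 immediate early genes, which answer acute stimuli within minutes, summed to 1285 and 777 CPM in sham and 396 and 359 CPM in TAC, with 21 estimates below 0 and 11 genes called lower, against 2.43% of all genes. The part of either list in the Hmox1 values was not tested.

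**Figure D4:**
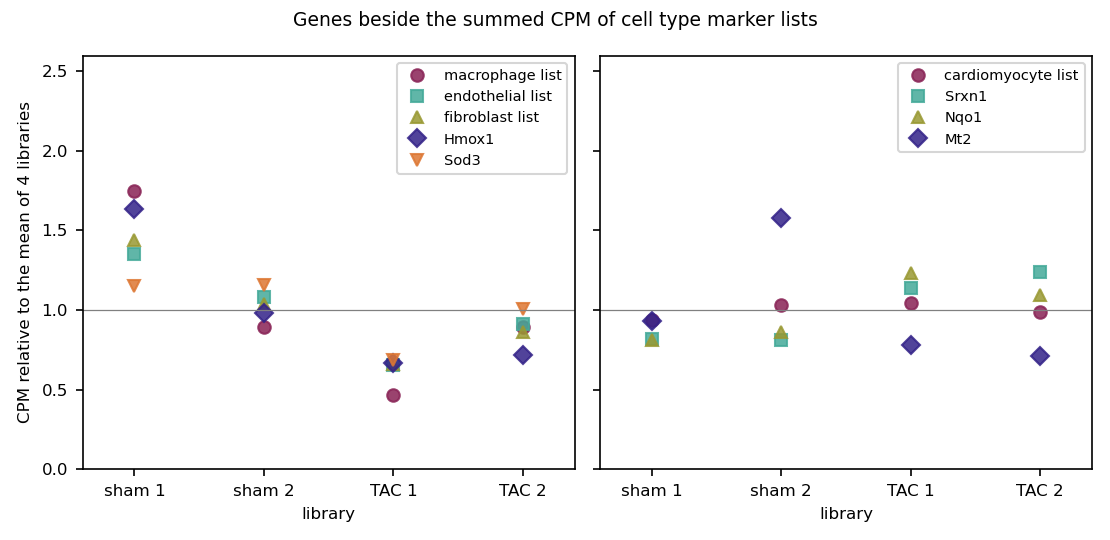
CPM of 5 members and summed CPM of 4 marker lists in each library, divided by the mean over the 4 libraries. Hmox1 and Sod3 are drawn with the macrophage, endothelial and fibroblast lists on the left, and these 3 lists are highest in sham replicate 1 and lowest in TAC replicate 1, and Srxn1, Nqo1 and Mt2 are drawn with the cardiomyocyte list on the right, which ran from 0.934 to 1.04.

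Iron genes did not separate in step. Fth1 was at 529 and 516 CPM in sham and 509 and 413 CPM in TAC (−0.18 ± 0.11, edgeR adjusted p = 0.307). Both TAC libraries lay below both sham libraries, narrowly for TAC replicate 1 in CPM and by a wider gap in FPKM. Ftl1, the ferritin light chain, and Tfrc, the transferrin receptor that brings iron in, overlapped between groups at 70.1 to 91.8 CPM and 67.7 to 84.8 CPM. Hmox2 differed by 0.07 ± 0.09 on the log2 scale, and 892 of its 2217 exonic bases are shared with Cdip1 on the opposite strand. The median of the 5 haem and iron members was −0.05 with TMM and −0.25 with total counts, where all 5 estimates were below 0. Pseudogenes of Fth1 and Ftl1 are annotated, so their counts may include reads from more than 1 locus.

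The metallothioneins are small cysteine-rich proteins that bind zinc and copper and scavenge radicals, and Mt1 and Mt2 are neighbours on chromosome 8. Mt2 (ENSMUSG00000031762, chr8:94172664-94173568, plus strand) was at 12.2 and 20.7 CPM in sham and 10.2 and 9.32 CPM in TAC, from 386, 597, 285 and 228 counts. The groups did not overlap, and sham replicate 2 was well above the other 3 libraries. The log2 fold change was −0.75 ± 0.23 SE (edgeR adjusted p = 0.0982, range 0.000413 to 0.347). Mt2 was called lower with total counts (−0.94, edgeR adjusted p = 0.0438), with DESeq2, without the low-count filter and with limma on log2(FPKM + 0.1) and log2(FPKM + 1). It was not called with totals without mitochondrial genes or with the replicate block. The estimate was −1.08 without sham replicate 1 and −0.31 without sham replicate 2. Mt1 was at 66.1 and 97.2 CPM in sham and 68.4 and 57.4 CPM in TAC (−0.37 ± 0.17, edgeR adjusted p = 0.211), with sham replicate 1 inside the range of TAC. Its estimate was −0.63 and called without sham replicate 1 (edgeR adjusted p = 0.00364) and −0.06 without sham replicate 2 (edgeR adjusted p = 0.806). Both estimates were below 0 under every scaling tried. Of the 588 exonic bases of Mt2, 432 are shared with an antisense gene.

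NADPH oxidases make superoxide or peroxide on purpose. Nox4, the constitutively active member of heart muscle, had 12 and 10 counts in sham and 3 and 5 in TAC, and its log2 fold change of −1.22 ± 0.64 SE was not called (edgeR adjusted p = 0.256, range 0.233 to 0.716). Nox4 lies on the plus strand at chr7:87246096-87398710. Both TAC libraries were below both sham libraries, at 0.379 and 0.348 CPM in sham and 0.108 and 0.204 CPM in TAC. At so few counts the size of a difference was not resolved. Cyba, the p22phox subunit that partners several NADPH oxidases, overlapped between groups at 9.16 and 6.74 CPM in sham and 6.60 and 9.41 CPM in TAC (0.00 ± 0.22, edgeR adjusted p = 0.995).

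Beyond the members, 175 other genes of the same pathways were examined in 9 lists, and 152 of them could be tested. Among these, 6 were called higher and 5 lower in TAC, which is 3.95% and 3.29% against the 2.58% and 2.43% of all genes. Before adjustment, 26 had a higher and 24 a lower estimate with p under 0.05, or 17.1% and 15.8% against 13.5% and 14%. Both TAC libraries lay above both sham libraries for 30.9% and below them for 27%, against 29.8% and 30.3% of all genes. These shares were close to the background in both directions.

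Among genes of NADPH supply, Idh2 was called higher and Idh1 and Nadk2 lower. Idh2, the mitochondrial enzyme, was at 1304 and 1218 CPM in sham and 1783 and 1591 CPM in TAC (0.42 ± 0.09, edgeR adjusted p = 0.0495). Idh1, the cytosolic and peroxisomal enzyme, was at 40.9 and 48.1 CPM in sham and 29.7 and 29.9 CPM in TAC (−0.58 ± 0.10, edgeR adjusted p = 0.0265). Nadk2, the mitochondrial NAD kinase, was at 52.3 and 57.0 CPM in sham and 40.2 and 42.5 CPM in TAC (−0.40 ± 0.08, edgeR adjusted p = 0.0430). In each of the 3 genes the groups were apart, but every call was lost without sham replicate 2 or without TAC replicate 1 (edgeR adjusted p from 0.0570 to 0.142), and that of Idh2 also without sham replicate 1 (edgeR adjusted p = 0.0600). These were the calls among 16 tested genes of the list, against 2.58% of all genes called higher and 2.43% lower.

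Of glutathione transferases and peroxidases, 1 of 22 tested was called higher and 2 lower, against 2.58% and 2.43% of all genes. Mgst3, a microsomal transferase, was at 135 and 127 CPM in sham and 181 and 171 CPM in TAC (0.43 ± 0.08, edgeR adjusted p = 0.0278). Its relative Mgst1 was at 40.9 and 44.2 CPM in sham and 30.9 and 31.4 CPM in TAC (−0.45 ± 0.08, edgeR adjusted p = 0.0313). Gstt2, a theta-class transferase, was low throughout, at 2.59 and 2.43 CPM in sham and 0.68 and 0.78 CPM in TAC (−1.78 ± 0.30, edgeR adjusted p = 0.0257). The calls of Mgst3 and Mgst1 were lost without sham replicate 2 and without TAC replicate 1 (edgeR adjusted p from 0.0565 to 0.0971), and that of Gstt2 without TAC replicate 1 (edgeR adjusted p = 0.0840).

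In iron and haem handling, Slc39a14, an importer of zinc and iron, rose from 60.8 and 54.9 CPM to 80.5 and 81.9 CPM (0.49 ± 0.08, edgeR adjusted p = 0.0233), and kept the call without any 1 library. Slc40a1, ferroportin, the iron exporter that macrophages also express, fell from 27.3 and 29.3 CPM to 14.02 and 20.1 CPM (−0.73 ± 0.16, edgeR adjusted p = 0.0485), and was not called without TAC replicate 1 (−0.49, edgeR adjusted p = 0.0843). The macrophage, endothelial and fibroblast lists were lowest in TAC replicate 1 as well. The macrophage list was highest in sham replicate 1, at 152 CPM against 77.5 CPM in sham replicate 2, whereas Slc40a1 was not higher there. The part of these lists in the fall of Slc40a1 was not tested. Among NRF2 partners, repressors and textbook targets, 1 of 24 tested genes was called higher and 0 lower by edgeR, against 2.58% and 2.43% of all genes, with 6 at an unadjusted p under 0.05, against 13.5% of all genes with higher and 14% with lower estimates. That gene was Park7, the redox-sensitive chaperone DJ-1, at 56.5 and 61.9 CPM in sham and 78.0 and 78.8 CPM in TAC (0.41 ± 0.08, edgeR adjusted p = 0.0357), and it was not called without sham replicate 1 or TAC replicate 1 (edgeR adjusted p = 0.113 and 0.0843).

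Of thioredoxins, glutaredoxins and methionine sulphoxide reductases, 1 of 22 was called higher, against 2.58% of all genes. This was Msrb3, which repairs oxidised methionine, at 86.1 and 87.5 CPM in sham and 108 and 107 CPM in TAC (0.31 ± 0.07, edgeR adjusted p = 0.0495). Among oxidase subunits and oxidant sources, Nos1, the neuronal nitric oxide synthase, rose from 15 and 25 counts to 73 and 49 counts (1.79 ± 0.39, edgeR adjusted p = 0.0467). Msrb3 lost its call whichever of the 4 libraries was left out (edgeR adjusted p from 0.0646 to 0.156), and Nos1 lost it without sham replicate 1 and without TAC replicate 1 (edgeR adjusted p = 0.104 and 0.176). The remaining lists, on glutathione turnover, zinc handling and other defence genes, had 14, 6 and 11 genes tested and held 0 called by edgeR, against 5.01% of all genes called in either direction. At an unadjusted p under 0.05 there were 4, 0 and 3, against 13.5% of all genes with higher and 14% with lower estimates. All 6 genes called higher lost the call with total counts, with adjusted p between 0.0561 (Nos1) and 0.589 (Msrb3), while all 5 called lower kept it.

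**Figure D5:**
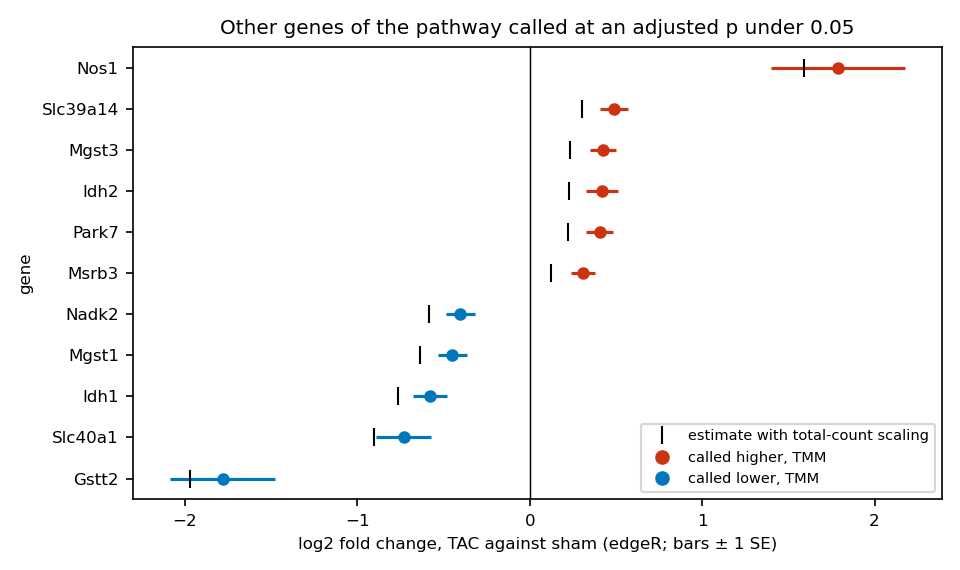
Log2 fold changes, TAC against sham, of the 11 other pathway genes called at an adjusted p under 0.05 in edgeR with TMM scaling (points, bars ± 1 SE, 2 libraries per group), with total-count estimates as ticks. The 6 higher genes run from Msrb3 at 0.31 to Nos1 at 1.79 and the 5 lower genes from Nadk2 at −0.40 to Gstt2 at −1.78.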

How the data were processed

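RNA-seq of cardiomyocytes from 2 sham and 2 TAC mice was analysed. The authors deposited, for each library, expected counts per gene and FPKM. The submitters' processing notes name Bowtie2 2.2.8, StringTie 1.3.1 and mm10. The counting program, its use of strand and its annotation were not given in the sources used here. Positions are from GENCODE M21 and promoters from RefSeq.

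Expected counts were rounded, filtered with filterByExpr and tested for TAC against sham with edgeR 4.0.16 (quasi-likelihood, TMM, no block, R 4.3.3), with Benjamini-Hochberg adjustment over 12499 genes. Alternatives were DESeq2 1.42.0, other scalings, no filter, limma 3.58.1 on log2(FPKM + 0.1) and log2(FPKM + 1), a replicate block and leaving out each library. The ranges of adjusted p cover the main fit and these alternatives, and leave out the crossed replicate block described below. Leaving out a library left 1 in its group, so the spread in that fit came from the 2 libraries of the other group and from all tested genes. Calls kept or lost in such fits describe sensitivity only. With 2 libraries per group an exact permutation test of 1 value cannot go below p = 0.333, so none was used. Libraries came from separate mice, so the p-values concern variation between animals. With 2 animals per group, edgeR estimated the spread of each gene with help from the spread of all tested genes.

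Members and gene lists were chosen with earlier results of these data known. Called members, Nfe2l2 and Keap1, and members with groups apart and an absolute log2 fold change of 0.5 or more are given in full, other members by role, and other pathway genes where called. Promoters of Gsta4, Hmox1, Sod3, Prdx6, Gclc and Gsr were not matched. Nnt, with 2 rows for 1 symbol, was not used.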

Additional observations from a re-analysis of the deposited data

How the results depend on the processing

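Of the 37 members, 2 were called higher in TAC and 0 lower, and of other pathway genes 6 and 5. Members called higher numbered 0 with total counts, 1 with totals without mitochondrial genes, 4 with DESeq2, 5 without the low-count filter and 0 with limma on log2(FPKM + 0.1) or on log2(FPKM + 1). Members called lower numbered 1, 0, 1, 2, 1 and 1 under these settings. Pathway genes called higher numbered 0, 0, 11, 12, 0 and 0, and those called lower 17 without the filter and 5 to 7 otherwise. At an adjusted p under 0.1 the 4 counts were 8, 2, 14 and 12. Leaving out each library in turn gave 1 to 3 and 0 to 2 members and 1 to 11 and 1 to 15 pathway genes, higher and lower. With the replicate block the counts were 2, 0, 3 and 5, and Idh2, Msrb3, Nos1 and Nadk2 were not called. Deviations of same-numbered libraries from their group means had a weak negative correlation across genes (−0.24). The labels of these libraries share only a number. The study speaks of pairs of sham and TAC mice and does not say how they were paired. The crossed replicate block, added after seeing the data, gave 7, 3, 15 and 18. The cause of these changes was not tested.

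The 37 members were compared with their alternatives 442 times, the crossed replicate block included. Of these comparisons 406 left the call as it was, 26 gained a call and 10 lost one. No called value changed sign, and 63 of the 406 changed sign without a call in either setting. With 2 libraries per group and a common biological coefficient of variation of 10.5%, small differences and low genes such as Nox4 and Slc7a11 were not resolved. Genes without a call are not shown to be equal. Counting intervals and floors cover counting error only.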
